A study of Caenorhabditis elegans with 2 samples.

Results

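Cytochrome P450 genes were described in whole *Caenorhabditis elegans* given vehicle or ellagic acid (EA). The members were the rows of the deposited gene table whose gene name begins with cyp-, and no measured value was used to choose them. They numbered 74 of 21163 gene rows, and the deposited Pfam annotation gave a Cytochrome P450 domain to all 74. By name they fell into CYP13 (13 genes), CYP14 (5), CYP25 (5), CYP29 (3), CYP33 (18), CYP34 (8), CYP35 (10) and 12 genes of smaller subfamilies. Both groups were the wild-type strain N2 at day 5 on *Escherichia coli* OP50. The control group received vehicle and the EA group received 100 µM EA, a plant polyphenol that had been dissolved in dimethyl sulfoxide and was mixed into the bacterial food. Each group was 1 library of RNA from whole animals, so the cells of all tissues were pooled. The series title concerns lifespan and healthspan, and the comparison asked which P450 transcripts differed with EA.

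Cytochrome P450 enzymes are heme-containing monooxygenases that insert oxygen into lipophilic substrates. Most sit in the membrane of the endoplasmic reticulum and take electrons from NADPH-cytochrome P450 reductase. In *C. elegans* they act on foreign chemicals, on polyunsaturated fatty acids and on sterol hormones, and many are expressed in the intestine. The nematode cannot make heme, so the prosthetic group of these enzymes comes from the diet.

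The control library held 41840364 counts and the EA library 39421614. With a single library in each group, the differences have no replicate check, no p-value was computed, and the 95% intervals cover counting error only. Markers of intestine summed to 598 CPM (counts scaled to the effective library size) in control and 620 CPM with EA, and those of body muscle to 982 and 1001 CPM. The intestinal markers were split, 3 lower and 3 higher with EA. Their log2 ratios of EA to control ran from -0.27 for ges-1 to 0.42 for elt-2. Neuronal markers summed to 440 CPM in control and 420 CPM with EA, and all 3 had an interval below a ratio of 1. Epidermal and pharyngeal markers were present in both libraries, although dpy-7 and rol-6 of the epidermal list lay below a mean of 1 CPM. All 6 germline markers were higher with EA, 1223 CPM in sum against 1527 CPM, and the 6 sperm markers summed to 29.4 and 64.9 CPM. The pharyngeal markers summed to 245 and 199 CPM, and the male markers to 6.58 and 8.57 CPM. In bulk samples such as these, fewer cells of a type and less RNA per cell cannot be told apart, and the part of these shifts in the results on P450 genes was not tested.

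1 gene supplied a large share of the P450 transcripts in both libraries. On the FPKM scale, the authors' values scaled by transcript length and by sequencing depth, cyp-14A5 (chromosome V, 5421018 to 5423282, build WBcel235) stood at 563 in control and 556 with EA. That was 41.6% of the summed FPKM of the 74 genes in control and 41.7% with EA. CYP14 genes are known as responsive to foreign chemicals. The next genes by FPKM were of the CYP35 subfamily, which is strongly inducible by xenobiotics in this species. cyp-35C1 had an FPKM of 73.8 in control and 64.8 with EA, cyp-35A2 had 70.0 and 71.7, and cyp-35A3 had 49.5 and 44.4. The order of cyp-35C1 and cyp-35A2 thus differed between the libraries. On the scale per length cyp-14A5 was thus several times above every other member in both libraries.

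**Figure D1:**
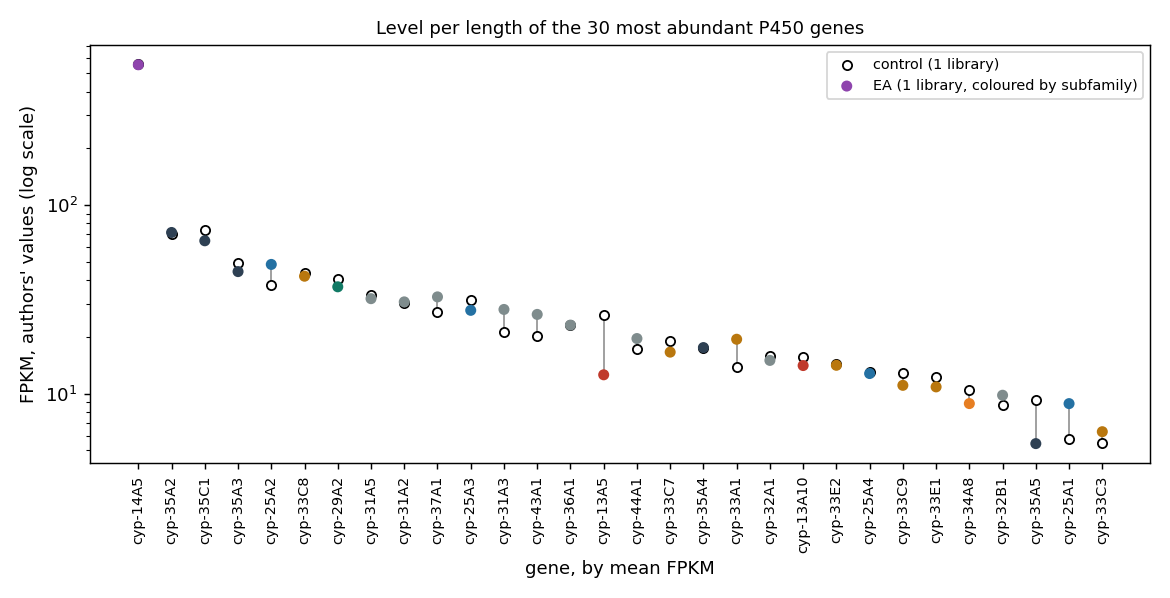
The plot shows the level per length (FPKM, log scale) of the 30 P450 genes with the highest mean FPKM, as an open circle for the control library and a filled circle, coloured by subfamily, for the EA library. cyp-14A5 stands apart at 563 and 556 FPKM, and cyp-13A5 has a wide vertical gap, 26.1 against 12.6 FPKM.

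Below the abundant CYP35 genes came a broad middle range. cyp-33C8 had 43.7 FPKM in control and 42.0 with EA, cyp-29A2 had 40.6 and 36.9, and cyp-25A2 had 37.9 and 48.5. cyp-25A2 moved from rank 7 to rank 4 by FPKM. cyp-13A5 moved from rank 12 to rank 23, the member of the 30 highest with the widest gap between libraries. Counted by mean level, 25 genes had at least 20 CPM, 13 lay between 5 and 20 CPM, 15 lay between 1 and 5 CPM, and 21 lay below 1 CPM. The lower bound of 1 CPM fell between cyp-14A1 at a mean of 1.04 CPM and cyp-33C2 at 0.996 CPM.

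P450 transcripts as a whole were slightly lower with EA by counts. The 74 genes held 95156 counts in control (0.227% of the library) and 86390 counts with EA (0.219%). Per effective library the ratio of EA to control was 0.940 (95% counting interval 0.932 to 0.949), and without cyp-14A5 it was 0.940 (0.928 to 0.951). The summed FPKM was 1354 in control and 1332 with EA, a ratio of 0.984. The ratio of the sums was thus below 1 on both scales, and its size depended on the scale. The summed FPKM of all genes was also lower with EA, at 827364 in control and 803951 with EA. As a share of that total, the members were not lower with EA on the FPKM scale.

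Of the 53 members with a mean of 1 CPM or more, 4 were at least 2-fold lower with EA with an interval that excluded 1, and none was at least 2-fold higher. Among all 14221 genes at that level, 3.52% were lower and 2.03% higher by the same rule, so the 4 of 53 rested on few genes. The members' log2 ratios ran from -2.08 to 0.83 with a median of -0.10. Their quartiles were -0.31 and 0.11. The median of all genes at that level was -0.002, and their quartiles were -0.25 and 0.19. The members' median thus lay below that of all genes and well inside its quartiles.

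The small ratios leaned to the lower side. The log2 ratio was below 0 for 36 of the 53 members and above 0 for 17, a share of 67.9% below 0 against 50.3% of all genes. The interval lay wholly below a ratio of 1 for 23 members, or 43.4%, where the background was 32.2%. It lay wholly above 1 for 11 members, or 20.8%, where the background was 31.9%, and it spanned 1 for 19. The lean was widest among abundant members, where 19 of 25 with a mean of 20 CPM or more were below 0 (76%), while the background at that level was 44.4%. Between 5 and 20 CPM, 61.5% of members and 57.6% of all genes were below 0, and between 1 and 5 CPM 60% and 55.0%. Members at 20 CPM or more had a median log2 ratio of -0.10, and all genes at that level had 0.03. Between 5 and 20 CPM the medians were -0.15 for 13 members and -0.07 for all genes.

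**Figure D2:**
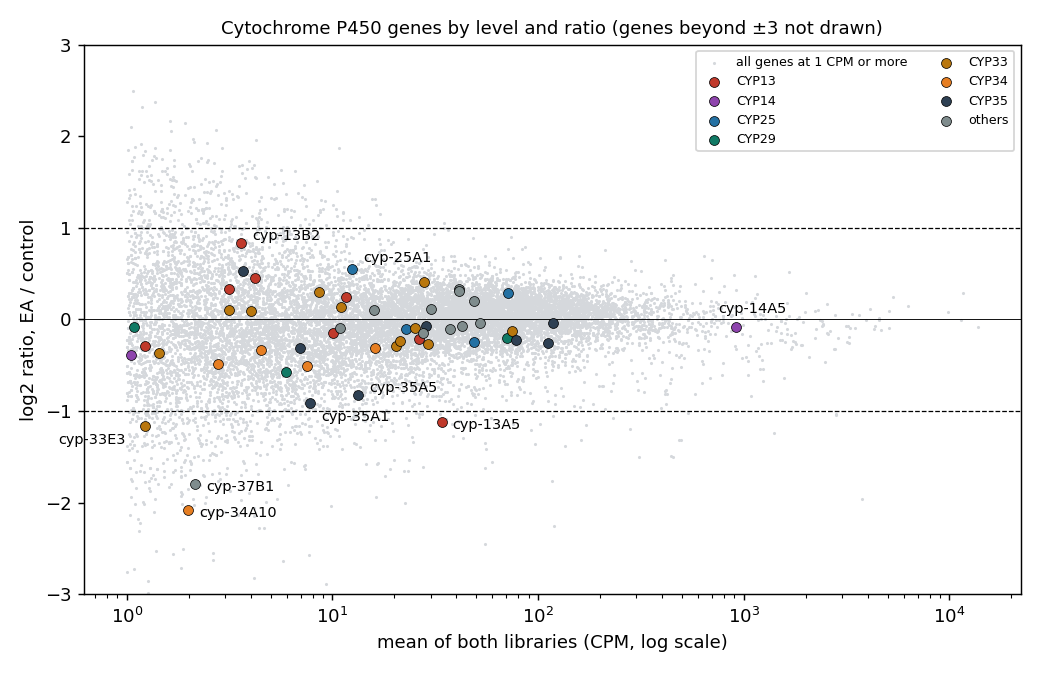
The plot shows the log2 ratio of EA to control against the mean level in CPM (log scale) for all genes at 1 CPM or more (grey) and for the 53 P450 genes at that level (coloured by subfamily), with dashed lines at 2-fold. cyp-34A10, cyp-37B1, cyp-33E3 and cyp-13A5 lie below the lower dashed line, and no P450 gene lies above the upper one.

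The 4 genes past the 2-fold rule came from 4 subfamilies. cyp-13A5 was the abundant one, with 1927 counts in control and 858 with EA, or 46.6 and 21.5 CPM. It was 2.17-fold lower (counting interval 2.00 to 2.35). Among all genes at 20 CPM or more 0.722% were lower by the rule, and 1 of 25 members (4%) was. cyp-13A5 lies on chromosome II (9798277 to 9800362) and its exons overlap no other annotated gene.

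The other 3 were weakly expressed. cyp-34A10 (chromosome V, 3970702 to 3972991) had 133 counts in control and 30 with EA, which was 4.23-fold lower (2.86 to 6.59). cyp-37B1 (chromosome V, 16278116 to 16280616) had 138 and 38 counts and was 3.47-fold lower (2.43 to 5.16). cyp-33E3 (chromosome IV, 8614995 to 8616023) had 70 and 30 counts and was 2.23-fold lower (1.45 to 3.58). These 3 were among 15 members at 1 to 5 CPM, a share of 20%, and 9.42% of all genes at that level were lower by the rule. Exons of cyp-37B1 and of cyp-33E3 overlap a protein-coding gene on the opposite strand, over 3.97% and 2.25% of their exonic bases. No source used here says if strand was used in counting, and reads in those stretches cannot be told apart.

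The members nearest to the limit on its other side were cyp-35A1 and cyp-35A5. cyp-35A1 had 421 counts in control and 216 with EA, a log2 ratio of -0.91 (-1.16 to -0.67). cyp-35A5 had 706 and 384 counts, a log2 ratio of -0.83 (-1.01 to -0.65). cyp-13A11, at 52 and 25 counts and a log2 ratio of -0.99, was short of both the level and the fold. On the higher side the nearest was cyp-13B2, with 107 and 184 counts and a log2 ratio of 0.83 (0.48 to 1.19).

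**Figure D3:**
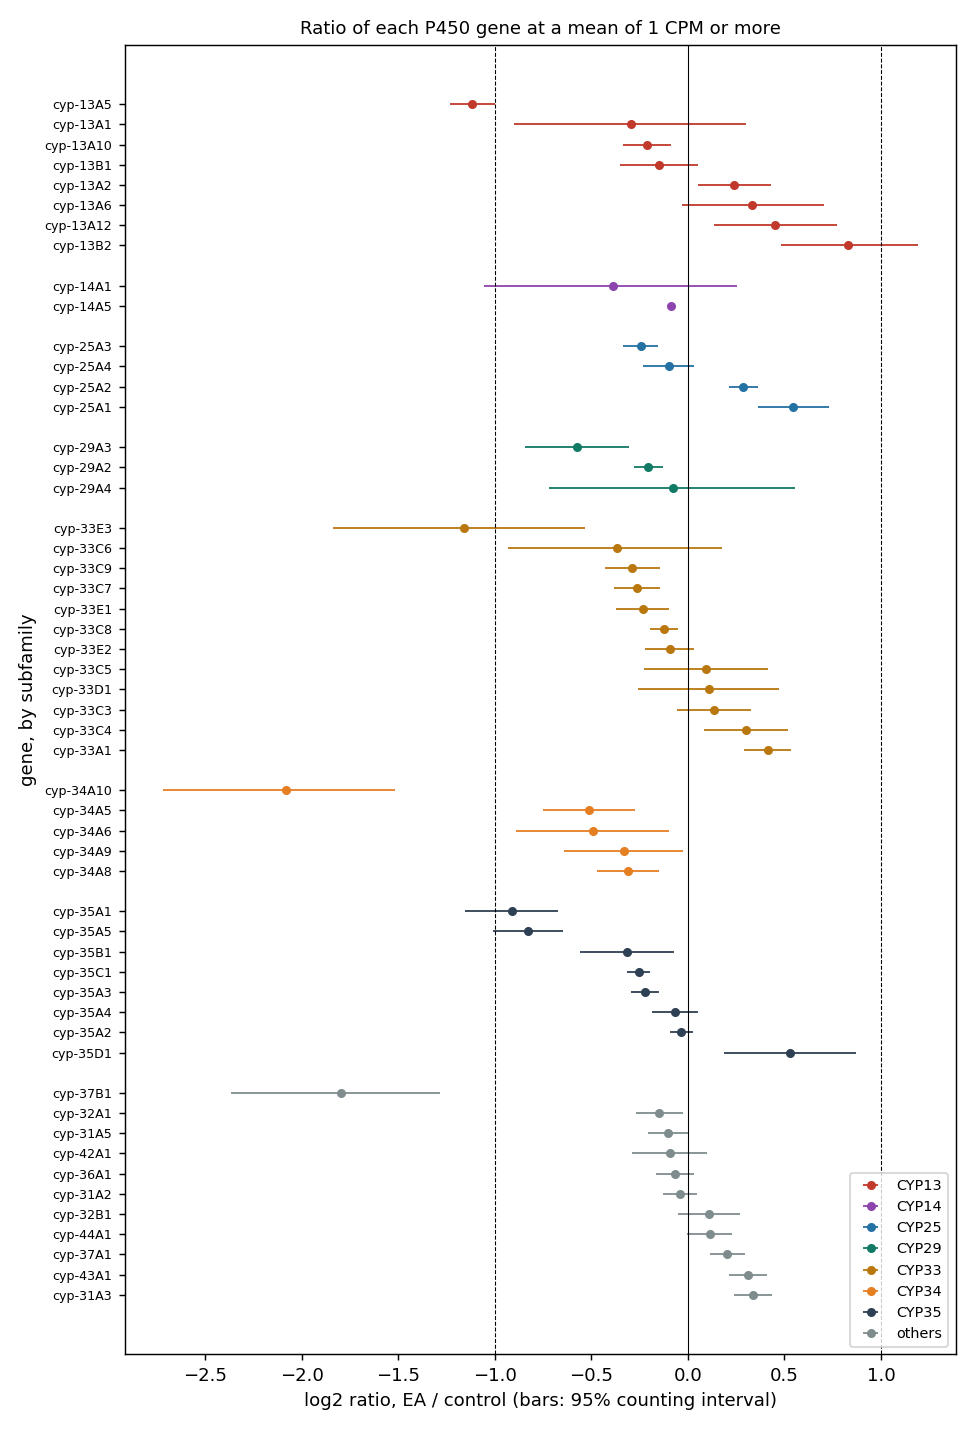
The plot shows the log2 ratio of EA to control for each of the 53 P450 genes at a mean of 1 CPM or more, grouped by subfamily, with bars for the 95% counting interval and dashed lines at 2-fold. All 5 CYP34 genes and 7 of 8 CYP35 genes lie to the left of 0, whereas CYP13 and CYP25 genes lie on both sides.

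CYP35 genes, the best-known xenobiotic-responsive P450 genes of the nematode, were lower with EA by a small margin. CYP35 summed to 16220 counts in control and 13737 with EA, a ratio of 0.877 (0.857 to 0.897). Of 8 members at 1 CPM or more, 7 were below 0 on the log2 scale, where 50.3% of all genes were, and 5 had an interval below a ratio of 1, where 32.2% of all genes did. The median log2 ratio was -0.24.

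Among cyp-35C1 and the CYP35A genes, cyp-35A2 and cyp-35A4 differed least. The size of the difference did not simply follow the level, as cyp-35C1 and cyp-35A3 were more abundant than cyp-35A4 and differed more. The CYP35A genes have been linked to fat storage in the intestine as well as to xenobiotics. cyp-35A2 had 4934 counts in control and 4652 with EA, a log2 ratio of -0.03 (-0.09 to 0.02), which was 0.03 on the FPKM scale. cyp-35A4 had 1211 and 1115 counts (-0.07, -0.19 to 0.05). Both intervals included 0. cyp-35A3 had 3484 and 2884 counts (-0.22, -0.29 to -0.15), and cyp-35C1, which also responds to many xenobiotics, had 5021 and 4061 (-0.26, -0.32 to -0.20). cyp-35A1 and cyp-35A5, near the 2-fold limit, were the least abundant of the 5 CYP35A genes, at a mean of 7.80 and 13.4 CPM.

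cyp-35B1 and cyp-35D1 fell on opposite sides of 0. cyp-35B1, also named dod-13 as a gene downstream of the insulin-pathway transcription factor DAF-16, had 318 counts in control and 247 with EA, a log2 ratio of -0.31 (-0.56 to -0.07). cyp-35D1, whose product metabolises the anthelmintic thiabendazole, had 125 and 174 counts, a log2 ratio of 0.53 (0.19 to 0.87). It was the 1 of the 8 CYP35 genes at 1 CPM or more with a log2 ratio above 0. cyp-35B2 had 0 counts in both libraries and cyp-35B3 had 0 in control and 4 with EA, where 3 counts correspond to 0.0726 CPM in control and 0.0752 CPM with EA.

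CYP34 genes, whose substrates are not well defined and of which cyp-34A9 (dod-16) is known as another gene downstream of DAF-16, were lower as a group. The 8 members summed to 1650 counts in control and 1156 with EA, a ratio of 0.726 (0.673 to 0.783). All 5 members at 1 CPM or more had an interval below a ratio of 1, where 32.2% of all genes did, and their median log2 ratio was -0.49. cyp-34A8, the most abundant, had 739 and 575 counts (-0.31, -0.47 to -0.15), and without it the ratio of the sum was 0.661 (0.594 to 0.734). cyp-34A5 had 365 and 247 counts (-0.51, -0.75 to -0.28). cyp-34A6 with 134 and 92 counts and cyp-34A9 with 206 and 158 also had intervals below 0. The sum was thus not carried by its largest member.

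CYP33, the largest subfamily with 18 genes, was mixed. It summed to 9810 counts in control and 9047 with EA, a ratio of 0.955 (0.928 to 0.983), which was 0.998 from summed FPKM. Of 12 members at 1 CPM or more, 7 were below 0 and 5 above, with a median log2 ratio of -0.11. Among the CYP33C genes, cyp-33C8 had 3235 and 2863 counts (-0.13), cyp-33C7 had 1318 and 1060 (-0.26) and cyp-33C9 had 926 and 732 (-0.29), each with an interval below 0. cyp-33C3 had 433 and 459 counts (0.13), with an interval that included 0. cyp-33C4 had 318 and 378 counts (0.30, 0.08 to 0.52). Nearby copies of CYP33C therefore lay on both sides of 0.

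cyp-33A1 had the highest ratio of the 12 CYP33 genes at 1 CPM or more. It had 984 counts in control and 1266 with EA, a log2 ratio of 0.41 (0.29 to 0.54). cyp-33E1 had 951 and 780 counts (-0.24, -0.37 to -0.10). cyp-33E2, whose product makes eicosanoids from polyunsaturated fatty acids, had 1081 and 977 counts (-0.10, -0.22 to 0.03). cyp-33E2 thus did not differ beyond counting error, while its neighbour cyp-33E3 was past the 2-fold rule at a much lower level.

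CYP29 genes were below 0 in 3 of 3 cases, where 50.3% of all genes at 1 CPM or more were. The member with a known lipid role had the lowest ratio. They summed to 3460 counts in control and 2847 with EA, a ratio of 0.852 (0.811 to 0.896). cyp-29A2 had 3121 and 2615 counts (-0.20, -0.28 to -0.13). cyp-29A3, which with cyp-33E2 is known for eicosanoid synthesis, had 293 and 190 counts (-0.57, -0.85 to -0.31). cyp-29A4 had 46 and 42 counts (-0.08, -0.72 to 0.55), too few for a difference of this size to be detectable.

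CYP13 had members on both sides of 0, and its sum rested on cyp-13A5. The 13 genes summed to 4517 counts in control and 3361 with EA, a ratio of 0.771 (0.737 to 0.806). Without cyp-13A5 the ratio was 1.00 (0.947 to 1.06). Of 8 members at 1 CPM or more, 4 were below 0 and 4 above, with a median log2 ratio of 0.045. cyp-13A10 had 1164 and 969 counts (-0.21, -0.34 to -0.09) and cyp-13B1 had 436 and 379 (-0.15, -0.35 to 0.05). cyp-13A2 had 441 and 503 counts (0.24, 0.05 to 0.43). cyp-13A12, whose product acts on polyunsaturated fatty acids in the behavioural response to reoxygenation, had 146 and 193 counts (0.45, 0.14 to 0.77). cyp-13A2, cyp-13A12 and cyp-13B2 were thus higher with EA, and cyp-13A5 and cyp-13A10 lower.

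CYP25 genes, the members that the deposited KEGG annotation places in arachidonic acid metabolism, were also split. They summed to 6250 counts in control and 6361 with EA, a ratio of 1.05 (1.02 to 1.09). cyp-25A1 had 419 and 591 counts (0.55, 0.36 to 0.73) and cyp-25A2 had 2642 and 3114 (0.29, 0.21 to 0.36). cyp-25A3 had 2181 and 1778 counts (-0.24, -0.34 to -0.15), and cyp-25A4 had 975 and 878 (-0.10, -0.23 to 0.03). These 4 genes lie in 1 run on chromosome III, with 3 other genes between them, and cyp-25A1 and cyp-25A2 at the left end were higher while cyp-25A3 was lower. Without cyp-25A2 the ratio of the sum was below 1, at 0.932 (0.889 to 0.978).

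CYP14 was cyp-14A5 almost alone, with 39013 of its 39108 counts in control and 35462 of 35562 with EA. cyp-14A5 had a log2 ratio of -0.09 (-0.11 to -0.07), or 1.06-fold lower, which was -0.02 on the FPKM scale. Its depth made the counting interval narrow, and the interval does not cover the spread between cultures. The other 4 CYP14 genes, a run on chromosome X, summed to 95 counts in control and 100 with EA, a ratio of 1.09 (0.815 to 1.46). No difference in these 4 was detectable at this depth.

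**Figure D4:**
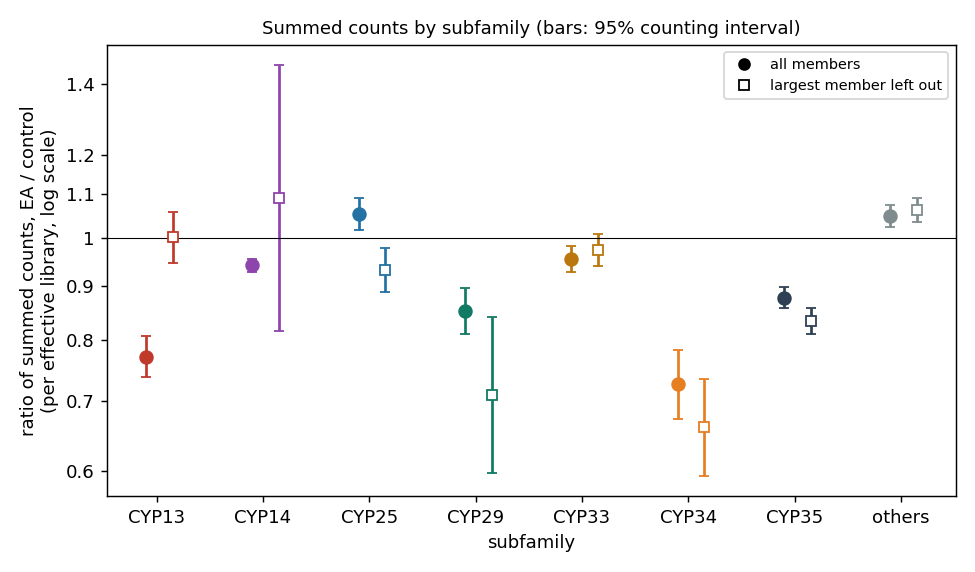
The plot shows the ratio of EA to control of the summed counts of each subfamily (log scale), with 95% counting intervals, for all members (filled circles) and with the member of most counts left out (open squares). CYP34 and CYP35 lie below 1 in both cases (0.726 and 0.661, 0.877 and 0.834), whereas CYP13 goes from 0.771 to 1.00 without cyp-13A5.

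The CYP31A genes were at a similar level in both libraries in sum, although 1 of them was higher with EA. cyp-31A2 and cyp-31A3 are near-identical genes needed, with the reductase emb-8, for the lipid-rich layer of the eggshell. cyp-31A2 had 2183 counts in control and 2047 with EA (-0.04, -0.13 to 0.05), and cyp-31A3 had 1499 and 1828 (0.34, 0.24 to 0.44). No source used here says how reads that fit both copies were assigned, so the division between them is uncertain, as it is for other close copies within a subfamily. Their sum was 3682 counts in control and 3875 with EA, a ratio of 1.09 (1.04 to 1.14). The germline markers, in whose tissue the eggshell genes act, had a ratio of 1.25 in sum, and their part in this value was not tested. cyp-31A5, the third CYP31A gene, had 1599 and 1437 counts (-0.10, -0.21 to 0.00).

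Among the remaining members, 3 were higher with EA beyond counting error, cyp-31A3 included. cyp-43A1 had 1529 counts in control and 1829 with EA (0.31, 0.21 to 0.41), and cyp-37A1 had 1873 and 2083 (0.20, 0.11 to 0.29). cyp-44A1, the mitochondrial-type P450 of the nematode, had 1193 and 1245 counts (0.11) and an interval that reached 0. cyp-36A1, a gene of the hypoxia pathway downstream of HIF-1, had 1795 and 1654 counts (-0.07, -0.16 to 0.03). The exons of cyp-36A1, cyp-37A1, cyp-43A1, cyp-44A1 and cyp-31A5 each overlap a protein-coding gene, over 8.40% of the exonic bases or less.

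The last 3 of this group differed little. cyp-32A1 had 1193 and 1039 counts (-0.15, -0.27 to -0.03). cyp-32B1 had 636 and 662 counts (0.11, -0.05 to 0.27), and cyp-42A1 had 467 and 422 (-0.10, -0.29 to 0.10). The 12 genes of the smaller subfamilies summed to 14141 counts in control and 14319 with EA, a ratio of 1.05 (1.02 to 1.07), with 6 members below 0 and 5 above. In sum they lay above 1, as CYP25 did, while the sums of CYP13, CYP14, CYP29, CYP33, CYP34 and CYP35 lay below. The sums of CYP13, CYP14 and CYP25 crossed 1 when the largest member was left out.

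By deposited Gene Ontology annotation, 37 members carry the term xenobiotic metabolic process, all from CYP23, CYP33, CYP34 and CYP35. Of the 25 of them at 1 CPM or more, 19 were below 0 and the median log2 ratio was -0.26. Of the 28 other members at that level, 17 were below 0 and the median was -0.08. The background of 50.3% below 0 over all genes applies to both, and the difference between the sets was not tested. The 6 members with the term response to xenobiotic stimulus, cyp-35C1 and the 5 CYP35A genes, were below 0 in 6 of 6 cases, with a median of -0.24.

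The members are clustered in the genome, and neighbours did not all behave alike. Chromosome V holds 41 of them, chromosome II 12, chromosomes IV and X 7 each, chromosome III 6 and chromosome I 1. With gaps of up to 20000 bases between neighbours, 45 members form 11 runs. The largest run, on chromosome V from 3936326 to 3972991, holds 10 genes from cyp-35A5 to cyp-34A10. All 7 of them at 1 CPM or more were below 0, where 50.3% of all genes were. They ran from -2.08 to -0.31 on the log2 scale, with a median of -0.49. The run summed to 2644 counts in control and 1769 with EA, a ratio of 0.693 (0.652 to 0.736), and 0.649 (0.603 to 0.698) without cyp-34A8. The run holds 6 of the 8 CYP34 genes and its other genes are of CYP35. Its sum is thus not a measurement apart from those of CYP34 and CYP35. Several of its genes overlap small or noncoding RNA genes on the opposite strand, over 6.19% of their exonic bases or less.

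The run of 8 CYP13A genes on chromosome II, from 9779181 to 9807569, gave a different picture. It summed to 2612 counts in control and 1611 with EA, a ratio of 0.639 (0.600 to 0.680), but cyp-13A5 supplied 1927 and 858 of these. Of the nearest neighbours at 1 CPM or more, cyp-13A2 on the left was higher with EA, and cyp-13A6 on the right had 115 and 140 counts (0.33, -0.03 to 0.70). Neither was lower with EA. Below 1 CPM, cyp-13A4 (8 and 0 counts) and cyp-13A7 (23 and 8) had intervals below a ratio of 1. The interval lay above 1 for cyp-13A8 (16 and 32) and included 1 for cyp-13A3 (26 and 26).

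**Figure D5:**
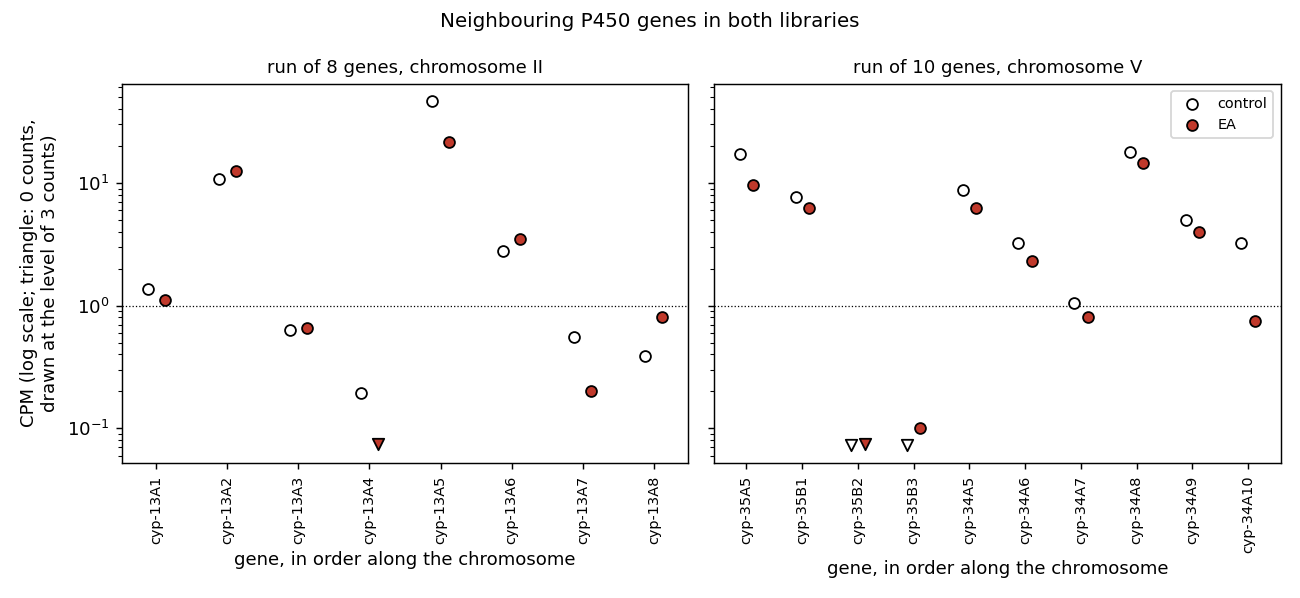
The plot shows the level in CPM (log scale) of neighbouring P450 genes in order along the chromosome, for control (open) and EA (red), with triangles for 0 counts drawn at the level of 3 counts and a dotted line at 1 CPM. In the chromosome V run the EA point lies below the control point for all 7 genes at a mean of 1 CPM or more, while in the chromosome II run cyp-13A5 is lower with EA (46.6 and 21.5 CPM) and cyp-13A2 is higher (10.7 and 12.6 CPM).

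The 21 members below a mean of 1 CPM add little to the sums. They had between 0 and 52 counts in a library. They comprise 5 CYP13 genes with 0 to 52 counts, 3 CYP14 genes with 11 to 25, 6 CYP33 genes with 10 to 43, 3 CYP34 genes with 6 to 43, 2 CYP35 genes with 0 to 4, cyp-25A6, and cyp-23A1 with 36 and 35. cyp-25A6 had 33 counts in control and 0 with EA. Against a floor of 3 counts per library that was 10.6-fold lower, and by the counting interval at least 8.16-fold lower. cyp-13A4 had 8 counts and 0, 2.57-fold lower against the floor and at least 1.65-fold lower by the interval. cyp-13A7, known in *C. elegans* as induced by rifampicin, had 23 and 8 counts (-1.42, -2.84 to -0.26).

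Of these weakly expressed genes 3 were past 2-fold in the other direction. cyp-13A8 had 16 and 32 counts (1.03, 0.14 to 2.02), cyp-33C11 had 10 and 24 (1.27, 0.20 to 2.54), and cyp-33C12 had 13 and 31 (1.27, 0.33 to 2.36). Without a minimum level the rule thus gave 7 members lower and 3 higher. The share of all genes past the rule without a minimum was not computed, so these counts have no background beside them. The members named below 5 CPM, other than the 3 past the 2-fold rule and cyp-35B2, were chosen after their values were seen. Among them were also cyp-13A1 at 56 and 44 counts, cyp-14A1 at 49 and 36, cyp-33C5 at 161 and 166, cyp-33C6 at 67 and 50 and cyp-33D1 at 125 and 130, each with an interval that included a ratio of 1.

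Transcripts of a list of P450 partners, which also held the P450 gene daf-9, differed by less than 2-fold. Of the 6 listed genes, all at 1 CPM or more, 0 were past 2-fold, where 3.52% of all genes were lower and 2.03% higher. An interval below a ratio of 1 was found for 3 and above it for 1, where the backgrounds were 32.2% and 31.9%. Their median log2 ratio was -0.13, and -0.14 at 5 CPM or more, which left out daf-9. emb-8, which encodes the NADPH-cytochrome P450 reductase, had 6050 counts in control and 6184 with EA (0.08, 0.03 to 0.13). The cytochrome b5 genes, whose products can pass electrons to P450 enzymes, had 2461 and 1877 counts for cytb-5.1 (-0.34, -0.43 to -0.25) and 4468 and 3596 for cytb-5.2 (-0.26, -0.33 to -0.20). With a trend on transcript length removed, cytb-5.1 was at -0.08 and cytb-5.2 at 0.01 on the log2 scale, and the median of the 6 genes was -0.03. ceeh-1 and ceeh-2, epoxide hydrolases that act on fatty acid epoxides made by P450 enzymes, had 2042 and 1826 counts (-0.11) and 830 and 727 counts (-0.14). daf-9, a P450 gene outside the naming rule that makes the steroid hormone dafachronic acid, had 110 and 124 counts (0.22, -0.16 to 0.61).

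Heme transport genes were measured because P450 enzymes need dietary heme. Of 9 such genes 4 had at least 1 CPM, and their median log2 ratio was -0.20. Of these 4, 0 were past 2-fold in either direction, where 3.52% of all genes were lower and 2.03% higher. The intestinal heme transporter hrg-1 had 679 and 539 counts (-0.28, -0.45 to -0.12) and hrg-7, which codes for a secreted signal of heme status, had 1160 and 868 (-0.37, -0.50 to -0.24). mrp-5, the intestinal heme exporter, had 11534 and 13127 counts (0.24, 0.20 to 0.27). hrg-9 had 185 and 164 counts, with an interval that included a ratio of 1. Below 1 CPM, the heme importer gene hrg-4 had 18 and 49 counts (1.47, 0.69 to 2.36). In the other direction, hrg-3 had 10 counts in control and 0 with EA, with an upper bound of -1.11 on the log2 scale. hrg-2, hrg-5 and hrg-6 had at most 23 counts in a library.

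Of 14 genes of transcription factors linked to xenobiotic, hypoxia or intestinal programmes, 0 were past 2-fold, where 3.52% of all genes were lower and 2.03% higher. On the log2 scale 10 were above 0 and 4 below, where 50.3% of all genes were below, and the median was 0.04. With the trend on transcript length removed the median was 0.0004, and nhr-8 (-0.04), skn-1 (-0.05) and hif-1 (-0.04) lay below 0. elt-2, the GATA factor of the intestine, had 2086 counts in control and 2693 with EA (0.42, 0.34 to 0.50). nhr-86 had 1376 and 1680 counts (0.34, 0.24 to 0.44), and ahr-1, the aryl hydrocarbon receptor, had 182 and 220 (0.32, 0.03 to 0.62), while aha-1, its dimerisation partner, had 1443 and 1191 (-0.23, -0.34 to -0.11). nhr-176, a nuclear receptor needed for cyp-35D1 induction by thiabendazole, had 297 and 350 counts (0.29, 0.06 to 0.52). nhr-8, a nuclear receptor of xenobiotic resistance, had 1624 and 1572 counts (0.00, -0.10 to 0.10), and skn-1, the oxidative stress factor, had 6697 and 6488 (0.01, -0.04 to 0.05). hif-1, the hypoxia factor, had 9201 and 8994 counts (0.02). The 4 regulators below 0 were aha-1, daf-12, nhr-49 and pha-4, and daf-12, the receptor of dafachronic acid, had 2561 and 2104 counts (-0.23, -0.32 to -0.15).

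The authors' deposited table gave values for 57 of the 74 members and none for 17. At a false discovery rate (FDR) of 0.01 and a 2-fold change, the authors' deposited table called 3 members lower and 0 higher, where it called 3.52% of 14692 genes lower and 2.03% higher. The 3 were cyp-34A10 (FDR 1.54e-07 in the authors' deposited table), cyp-37B1 (2.60e-06) and cyp-13A5 (1.29e-05). The authors' deposited table gave cyp-33E3 an FDR of 0.0221, cyp-35A1 0.00249 and cyp-35A5 0.00366. No source used here says how the spread was set for groups of 1 library.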

How the data were processed

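RNA sequencing of whole N2 animals at day 5 gave 1 library for vehicle and 1 for 100 µM EA; sample titles set the groups and sample descriptions the table columns. The authors deposited raw counts per gene and FPKM values, and per the labels' protocols the reference was WBcel235 and FPKM the unit of expression. Beside these stand the authors' own deposited log2 ratio and FDR, an adjusted p-value. The submitters' processing notes name edgeR. Not given in the sources used here: aligner, counter, use of strand, and the treatment of reads matching several genes.

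Here, counts were scaled by TMM (edgeR 4.0.16, R 4.3.3), with factors of 0.988 for control and 1.01 for EA. edgeR and DESeq2 1.42.0 were used for library scaling alone, with no test across genes. The log2 ratio of EA to control had 0.5 added to each count. Its 95% interval was the exact conditional binomial (Clopper-Pearson) interval, which covers counting error only. A gene was called when it had 1 CPM or more on average, differed 2-fold or more and had an interval that excluded 1. At 0 counts a fold was taken against a floor of 3 counts per library, which leaves out the counting error of the other library. The steps were tested on simulated data. Members with a mean of 5 CPM or more or past the 2-fold rule were to be named, with members at 0 in both libraries. The members, the gene lists and this rule were chosen with earlier results of these data known. Coordinates, counted from 1, came from the RefSeq table of WBcel235 (74 of 74 matched), and transcript lengths and exon overlaps from the Ensembl 115 annotation (74 matched). Of the 74 members, 23 have exons that overlap another annotated gene. Alternatives were other library scalings, FPKM with 0.01 added, other minimum levels, a 1.5-fold limit, a pseudocount of 5, removal of a trend on transcript length, the largest member left out and, chosen after seeing the data, overlapping members left out. No P450 sequence was used here.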

Additional observations from a re-analysis of the deposited data

How the results depend on the processing

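With 1 library per group, leaving out a library leaves no comparison. No paired analysis was possible because the groups hold 1 library each and share fewer than 2 replicate numbers. Leaving out copies with over 90% protein identity was not run, as no protein sequence was used here.

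The count of members at least 2-fold lower, 4 of 53, was 1 of 38 at a minimum mean of 5 CPM, 1 of 33 at 10 CPM, 7 of 73 with no minimum and 2 of 39 without members that overlap another gene, an alternative chosen after seeing the data. The count at least 2-fold higher, 0 of 53, was 3 with no minimum and 1 at a 1.5-fold limit, at which 6 were lower. The share of all genes past the rule was not computed at these alternative settings. At 10 CPM, 23 of 33 members were below 0. The median log2 ratio of CYP14 was 0.39 with no minimum and that of CYP29 -0.39 at 5 CPM. With total counts in place of TMM, the ratio of summed counts was 0.964 for all members, 0.965 for CYP14, 0.899 for CYP35 and 1.07 for the smaller subfamilies. From summed FPKM it was 0.984 for all members, 0.987 for CYP14, 1.10 for CYP25, 0.998 for CYP33, 0.920 for CYP35 and 1.09 for the smaller subfamilies. Without the largest member the ratio crossed 1 for CYP13 (1.00), CYP14 (1.09) and CYP25 (0.932), and was 0.709 for CYP29, 0.661 for CYP34 and 0.834 for CYP35. These shifts follow from the genes or the scaling left in each sum. The scaling itself moved the median of all genes from -0.002 to at most 0.06 on the log2 scale, reached with FPKM. With FPKM the median of the members was -0.06, where it was -0.10 with TMM. The shift from scaling was thus not small beside the members' median. The members' median lay below that of all genes with either scaling, at -0.10 against -0.002 with TMM and -0.06 against 0.06 with FPKM.

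Of 205 alternative values of the 41 members named by the rule, 4 moved by more than their counting interval and 3 changed sign, and the largest shift was 0.15 on the log2 scale. Of 165 alternative values of the other results, 140 stayed within the spread or limit set for them, whatever their sign. Some small medians among these changed sign. The median log2 ratio of CYP13 was 0.045 in the main setting, -0.18 at 5 CPM and -0.15 with no minimum. That of CYP25 was 0.09 in the main setting and -0.10 with no minimum. For the smaller subfamilies it was -0.04 in the main setting and 0.03 at 5 CPM.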

Other observations

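The deposited Pfam annotation gave a Cytochrome P450 domain to 79 rows, and 5 of these have names outside the cyp- rule. dach-1 had 806 counts in control and 534 with EA, 19.5 and 13.4 CPM, a log2 ratio of -0.54 (95% counting interval -0.70 to -0.38), which is 1.46-fold lower. daf-9 had 110 and 124 counts. The other 3 are gene models that the authors added: 1 had 104 counts in control and 76 with EA (-0.40, -0.85 to 0.04), 1 had 12 and 0, and 1 had 4 and 0.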
